A study of Mus musculus with 26 samples.

Results

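The 10 genes described here carry the FGF signal and its read-out in mouse embryonic stem cells (mESCs): the ligand gene Fgf4, the receptor genes Fgfr1 and Fgfr2, the feedback inhibitors Spry2, Spry4, Dusp4 and Dusp6, and the ERK-responsive transcription factors Etv4, Etv5 and Egr1. Their rows were taken by gene symbol, with no threshold on any value, from the 24015 genes of each RNA-seq table. All 10 were among the 13477 genes that reached 1 RPKM (a read count divided by gene length in kilobases and by library size) in at least 2 of the 15 libraries.

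The libraries came from 7 conditions of a mESC line that carries a Stella:GFP reporter. Wild-type (wt) cells were grown in 2i+LIF (2 libraries) or in serum+LIF (1 library), and LIF, a cytokine that sustains self-renewal, was present throughout. The 2i medium holds PD0325901 at 0.8 µM, which blocks the ERK-activating kinase MEK, and CHIR99021 at 3.3 µM, which blocks GSK3β. The base of 2i+LIF is serum-free N2B27, whereas serum+LIF is DMEM with serum. All lines were kept in 2i+LIF, and the 13 serum+LIF libraries were made after 5 days in the serum medium without feeder cells. The other 12 of these came from edited lines. Mtgr1-/- cells are clones A3, C1 and C3, mutated by CRISPR in Mtgr1 (also called Cbfa2t2), and FH-Mtgr1 cells are the same 3 clones with a FLAG-HA-tagged Mtgr1 cDNA put back. Prdm14-/- cells are clones G6 and F10, mutated by CRISPR in Prdm14, and FH-Prdm14 cells are those clones with a tagged Prdm14 cDNA. E294K cells are those 2 clones with a tagged Prdm14 whose amino-acid change disrupts binding to Mtgr1. Each library of an edited line is thus 1 clone, and rescues share the clones of their knockouts. The study's methods describe its RNA replicates as independent, and p-values measure the spread between these libraries.

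FGF4 made by mESCs binds FGF receptors on the same cells and, through RAS, RAF and MEK, activates the kinase ERK, which moves cells away from the naive state and towards lineage commitment. ERK then switches on its own brakes: Sprouty proteins act upstream near RAS, and dual-specificity phosphatases (DUSPs) remove phosphate from ERK itself. Because these brakes and the ETS and EGR factors are transcribed when ERK is active, their mRNAs are widely used as a read-out of the pathway.

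The promoters of 3 of these genes are shown because the results below turn on them: Fgf4 fell and Fgfr2 rose in both knockouts, and Dusp6 was among the genes that fell furthest in 2i. Each line gives the 250 bases before the RefSeq start on GRCm38.p6, read 5′ to 3′ on the gene's strand, with searched motifs in capitals.
Fgf4 promoter, chr7:144861136-144861385, plus strand: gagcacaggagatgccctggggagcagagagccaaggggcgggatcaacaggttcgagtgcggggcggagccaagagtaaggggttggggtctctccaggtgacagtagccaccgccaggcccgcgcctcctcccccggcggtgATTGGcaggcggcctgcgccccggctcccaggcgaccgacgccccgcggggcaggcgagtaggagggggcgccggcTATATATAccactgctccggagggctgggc
Fgfr2 promoter, chr7:130266809-130267058, minus strand: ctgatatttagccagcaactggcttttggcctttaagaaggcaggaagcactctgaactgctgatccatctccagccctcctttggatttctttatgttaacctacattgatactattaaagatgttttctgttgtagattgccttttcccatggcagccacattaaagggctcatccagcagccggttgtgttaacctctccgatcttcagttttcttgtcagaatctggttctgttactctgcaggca
Dusp6 promoter, chr10:99262981-99263230, plus strand: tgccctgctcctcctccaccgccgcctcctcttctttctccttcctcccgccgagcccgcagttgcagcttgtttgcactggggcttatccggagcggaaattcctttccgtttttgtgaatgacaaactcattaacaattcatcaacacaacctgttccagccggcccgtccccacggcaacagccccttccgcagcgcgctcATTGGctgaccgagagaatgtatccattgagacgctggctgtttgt

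On either strand, the windows were searched for an ETS motif (CCGGAAG, in 6.91% of all 32851 RefSeq windows of this length), an AP-1 motif (TGANTCA, 6.75%), a cAMP-response motif (TGACGTCA, 1.55%), an EGR motif (GCGNGGGCG, 4.70%), a PRDM14 motif (GGTCTCTAA, 0.24%), the CArG box (1.47%), a CCAAT box (CCAAT, 33.8%) and a TATA box (TATATA, 5.25%). The Fgf4 window held a CCAAT box read on the opposite strand and overlapping TATA boxes 30 to 23 bases before the start, and the Dusp6 window held a CCAAT box 46 to 42 bases before it. None of the searched letters occurred in the Fgfr2 window, whose 44.0% of G and C stood against 71.2% for Fgf4 and 56.4% for Dusp6. Windows of Spry2 and Etv5 were searched too: Spry2 held none of the motifs, and Etv5 held CCAAT boxes at both of its listed starts. No window was used for Fgfr1, Spry4, Dusp4, Etv4 and Egr1.

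On mm9 with the GENCODE vM1 annotation, the longest coding transcripts lie at chr7:152047291-152051148 (Fgf4, plus strand), chr8:26629264-26686186 (Fgfr1, plus), chr7:137306026-137409759 (Fgfr2, minus), chr14:106291166-106296036 (Spry2, minus), chr18:38745922-38760922 (Spry4, minus), chr8:35870351-35882948 (Dusp4, plus), chr10:98725865-98730122 (Dusp6, plus), chr11:101631061-101646685 (Etv4, minus), chr16:22381382-22439792 (Etv5, minus) and chr18:35020861-35024638 (Egr1, plus). Exons of Fgfr1 overlap Gm16159 and exons of Egr1 overlap Gm17507 on the opposite strand. The counting is not stated to use strand, so reads of these pairs may not be separable.

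Between 10668572 and 21218414 reads per library were counted on genes, with a median of 13793727. Same-condition libraries differed beyond counting noise in every pair, with chi-square over its degrees of freedom running from 3.26 between the E294K libraries to 64.5 between the wt 2i+LIF libraries, so none was treated as a duplicate. Prdm14 itself, at 79.8 to 116 RPKM in FH-Prdm14 and E294K cells, 19.1 and 30.8 in wt 2i+LIF and 1.43 to 3.88 in the other 9 libraries, marked the tagged cDNA but did not separate Prdm14-/- cells (1.96 and 3.60) from wt serum+LIF cells (2.77). Cbfa2t2 stood at 18.0 to 19.9 RPKM in Mtgr1-/- and 25.5 to 28.0 in FH-Mtgr1 cells, and a small CRISPR deletion need not remove the mRNA. Its level did not mark the Mtgr1 knockout, being lower still in Prdm14-/- cells (16.6 and 16.8). In wt serum+LIF it was at 40.7, above the rescue. The 5 general pluripotency genes checked were expressed in all libraries, with a summed level of 1422 to 1689 RPKM in Mtgr1-/- cells and 2460 to 4358 in all other conditions. Dppa5a weighed most in this gap, at 295 to 494 RPKM in Mtgr1-/- and 1124 to 2393 in the other conditions. Sox2 and Nanog were also lowest in a Mtgr1-/- library, but Pou5f1 was lowest in a Prdm14-/- library (308) and Utf1 in a wt 2i+LIF library (113).

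Levels differed widely among the 10 genes, and RPKM, being per gene length, allows them to be set side by side. Over all 15 libraries the median level was 112 RPKM for Etv5 and 88.5 for Fgf4, between 9.40 and 37.3 for 7 others, and 2.95 for Fgfr2. The genes also differed in how far they moved. The highest library exceeded the lowest by 136-fold for Egr1, 72.9-fold for Spry4, 33.8-fold for Dusp6, 26.0-fold for Fgfr2 and 19.1-fold for Dusp4, but by 8.88-fold for Fgf4 and by 2.16- to 4.13-fold for Fgfr1, Spry2, Etv4 and Etv5. The lowest library was a wt 2i+LIF one for 6 of the 10 genes (Fgfr2, Spry2, Spry4, Dusp4, Dusp6 and Egr1).

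**Figure D1:**
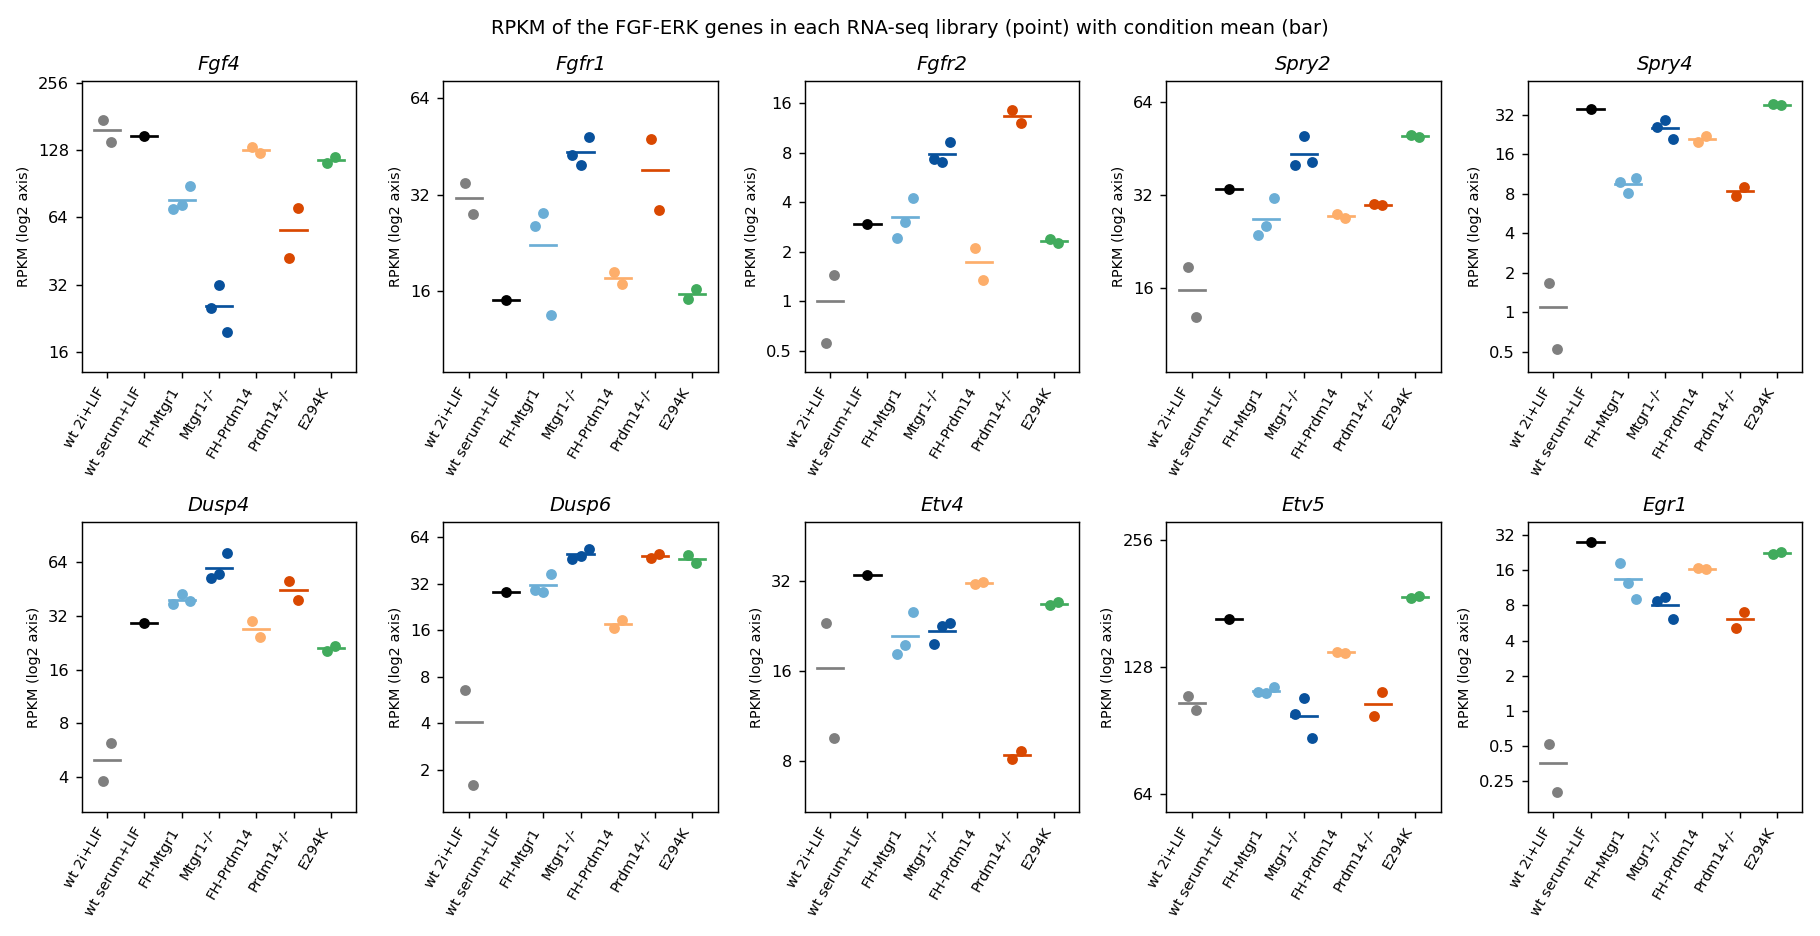
RPKM (log2 axis) of each of the 10 genes in every library, grouped by condition, with each point 1 library and each bar the mean of a condition. The wt 2i+LIF points of Egr1, Spry4, Dusp4 and Dusp6 lie below all others, and the Mtgr1-/- points of Fgf4 lie between 19.6 and 32.0 RPKM, below every other library.

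The first comparison asked how far these mRNAs differ between 2i+LIF, where MEK is blocked, and serum+LIF. The inhibitors, the base medium and the serum cannot be told apart in it. All adjusted p-values below come from limma on log2(RPKM + 0.5) with Benjamini-Hochberg adjustment over the 13477 genes. Log2 changes, and the fold changes and shares of a rescue level computed from them, are on that scale. It understates the change of low genes, so these folds are smaller than the ratios of the printed RPKM where a level is low. Comparing wt cells in 2i+LIF with wt cells in serum+LIF, 8 of the 10 genes were lower and none was higher at an adjusted p under 0.05. Of all genes tested 22.9% passed, 13.6% as lower and 9.28% as higher. The median change of the 10 genes was -1.20 on the log2 scale, against -0.10 over all genes.

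Egr1, an immediate-early zinc-finger factor, stood at 27.7 RPKM in wt serum+LIF and at 0.52 and 0.20 RPKM in the 2i+LIF libraries, the latter resting on 8 reads. It fell by 5.06 on the log2 scale (SE 0.37, limma adjusted p = 1.14e-05). Spry4, a Sprouty inhibitor, was at 35.2 RPKM in serum and at 1.65 and 0.53 in 2i, a change of -4.59 (SE 0.34, limma adjusted p = 1.14e-05). In both genes the 2i libraries were far below every serum library of any genotype.

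Dusp6, the cytoplasmic ERK phosphatase, was at 28.1 RPKM in serum and at 6.6 and 1.59 in 2i (-2.89, SE 0.47, limma adjusted p = 0.00153). Dusp4, a nuclear phosphatase of the family, was at 29.1 RPKM in serum and at 3.78 and 6.18 in 2i (-2.47, SE 0.27, limma adjusted p = 0.000126). The 2i libraries were not alike, since library 2 had the lower Dusp6, Spry4, Egr1 and Spry2 but the higher Dusp4 and Fgfr2.

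Smaller falls were seen for Spry2 (33.4 RPKM in serum, 18.7 and 12.8 in 2i, log2 change -1.09), Etv4 (33.5 against 23.1 and 9.59, -1.14) and Etv5 (166 against 109 and 101, -0.66). Fgfr2 was low in both media, at 2.95 RPKM in serum and 0.56 and 1.45 in 2i (-1.26, limma adjusted p = 0.0285). Etv4 lost the call without 2i+LIF library 2 (limma adjusted p = 0.0845), and Fgfr2 lost it without library 1 (limma adjusted p = 0.0982). Etv4 also lost it with the parental clone as a block (limma adjusted p = 0.0734).

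The receptor gene Fgfr1 and the ligand gene Fgf4 did not follow. Fgfr1 was at 15.0 RPKM in serum and at 34.7 and 27.8 in 2i, a log2 change of 1.03 (SE 0.37, 95% interval 0.22 to 1.84, limma adjusted p = 0.0656) that passed at 0.0374 under median-of-ratios scaling. Fgf4 was at 147 RPKM in serum and at 174 and 139.5 in 2i, a log2 change of 0.08 with a 95% interval from -0.58 to 0.74.

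Serum+LIF wt cells gave 1 library, so the spread came from the other conditions. Fitted on these 3 libraries alone, where only the pair of 2i+LIF libraries gives a spread, limma passed 0 of the 10 and 0 of the 13477 genes (6 and 1593 at an unadjusted p under 0.05), while voom on reads computed back from RPKM, fitted to all libraries, passed 8 and 3256. With median-of-ratios scaling, all genes together shifted by 0.13 on the log2 scale in this comparison, Fgfr2 (limma adjusted p = 0.0528) and Etv4 (0.0512) no longer passed, and the share of called genes that were higher went from 40.6% to 53.4%.

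The same 2i+LIF libraries were set against the rescued lines, which are not wt but have 2 or 3 libraries each. Against FH-Mtgr1, 6 of the 10 genes were lower and 1 was higher (36.2% of all genes passed, 17.3% as lower and 18.8% as higher), with changes of -3.97 for Egr1, -3.04 for Dusp6, -2.90 for Dusp4, -2.74 for Spry4, -1.36 for Fgfr2 and -0.76 for Spry2. Fgf4 was the higher one (1.02), since FH-Mtgr1 cells held 69.6, 72.4 and 88.5 RPKM. Against 2i+LIF cells, FH-Prdm14 cells had 7 genes higher and none lower (23.5% of all genes passed, 15.5% as higher and 7.97% as lower), by 20.1-fold for Egr1, 14.4-fold for Spry4, 5.15-fold for Dusp4 and 4.68-fold for Dusp6, followed by Etv4, Spry2 and Etv5 at 2.06-, 1.74- and 1.32-fold. Etv4 (0.05) and Etv5 (0.0705) missed the threshold with the clone as a block, by limma adjusted p, and neither passed without 2i+LIF library 2 (0.139 and 0.140) or without either FH-Prdm14 library. All 3 of these comparisons share the 2i+LIF libraries.

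The pathway lists were counted in the same comparison. Of 12 tested feedback inhibitors outside the 10 genes, 5 were lower and none was higher, among them Dusp2 (-1.78 on the log2 scale), Spry1 (-1.47) and the EGFR inhibitor Errfi1 (-1.31). Of 11 tested ERK-induced targets, 5 were lower and none was higher, led by Myc (-3.02), Jun (-2.04) and Phlda1 (-1.82). Without 2i+LIF library 2, 3 genes of each list were lower and 1 was higher.

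Among 12 tested FGF ligands 1 was higher (Fgf10, 1.71) and 4 were lower, with Fgf15 (-2.93), Fgf5 (-1.90) and Fgf13 (-1.36) in front, and none of the other 3 tested receptors and coreceptors passed. Of the 21 genes of the RAS-ERK cascade, 5 were lower, including Braf (24.1 RPKM in serum, a mean of 5.47 in 2i, -2.05) and Mapk3, which codes for ERK1 (-0.77). The scaffold gene Ksr1 was higher (0.83, limma adjusted p = 0.046), a call lost with no filter (0.0696), with the clone as a block (0.0625), with only these conditions in the fit (0.591) or without 2i+LIF library 1 (0.148), and 0 to 4 cascade genes were higher over the alternatives.

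Loss of Mtgr1 was compared with its rescue to ask which members of the pathway depend on this co-repressor. In Mtgr1-/- against FH-Mtgr1, 5 genes were higher and 2 were lower, where 52.3% of all genes passed, 26.2% as higher and 26.1% as lower. The share of members that passed was thus near the share of all genes, and the description lies in which members moved and how.

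The ligand fell. Fgf4 stood at 25.1, 32.0 and 19.6 RPKM in Mtgr1-/- clones A3, C1 and C3 and at 69.6, 72.4 and 88.5 in the same clones after rescue. The groups did not overlap, and the knockout level was 0.333 of the rescue level (log2 change -1.59, SE 0.20, limma adjusted p = 6.06e-05).

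Both receptors rose. Fgfr2 stood at 7.33, 7.02 and 9.34 RPKM in the knockout clones and at 2.44, 3.05 and 4.28 in the rescue, 2.26-fold higher (SE 0.25 on the log2 scale, limma adjusted p = 0.00165). Fgfr1 stood at 42.4, 39.4 and 48.2 RPKM against 25.5, 28.1 and 13.5, 2.00-fold higher (limma adjusted p = 0.00495). FH-Mtgr1 clone C3 was the lowest library of the series for Fgfr1, and the groups did not overlap in either gene.

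Spry2 and Spry4 rose as well. Spry4 was at 25.7, 29.3 and 20.9 RPKM in Mtgr1-/- and at 9.79, 8.13 and 10.5 in FH-Mtgr1 cells, 2.57-fold higher (limma adjusted p = 0.000367). Spry2 was at 40.0, 49.7 and 40.9 RPKM against 23.7, 25.4 and 31.2, 1.62-fold higher (limma adjusted p = 0.00215). All knockout libraries lay above all rescue libraries for both. Their relative Spry1, outside the 10 genes, was at 11.4, 11.3 and 18.2 RPKM against 15.3, 16.8 and 18.2 (log2 change -0.32, limma adjusted p = 0.12).

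Of the phosphatases, Dusp4 was at 52.1, 55.3 and 72.3 RPKM against 37.3, 42.8 and 38.7, 1.49-fold higher (limma adjusted p = 0.0168). It missed the threshold without Mtgr1-/- clone C3 (limma adjusted p = 0.0674) or without FH-Mtgr1 clone A3 (0.0546). Dusp6 was at 46.5, 48.5 and 53.7 RPKM against 29.2, 28.1 and 37.2, groups that did not overlap, with a log2 change of 0.65, a 95% interval from -0.03 to 1.34 and a limma adjusted p of 0.0996. It passed with only these 2 conditions in the fit (limma adjusted p = 0.00582), with voom (0.0264) and, in an alternative chosen after the values were seen, without the wt 2i+LIF libraries (0.000793).

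The transcription factors did not rise. Egr1 was at 8.66, 9.40 and 6.06 RPKM against 18.3, 12.5 and 9.08 (log2 change -0.66, limma adjusted p = 0.0372), with overlapping libraries, and the call was lost without any 1 of 4 libraries (clone A3 or C3 of Mtgr1-/-, clone A3 or C1 of FH-Mtgr1), where limma adjusted p ranged from 0.0537 to 0.169. The Egr1 call was also lost with no filter (0.0617), a pseudocount of 0.1 (0.0651) or only these 2 conditions in the fit (0.0688). Etv4 was at 19.6, 22.5 and 23.2 RPKM against 18.2, 19.6 and 25.2, a log2 change of 0.06 with a 95% interval from -0.46 to 0.58. Etv5 was at 99.1, 108 and 87.0 RPKM against 112, 111 and 115, a log2 change of -0.20 with an interval from -0.43 to 0.03.

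**Figure D2:**
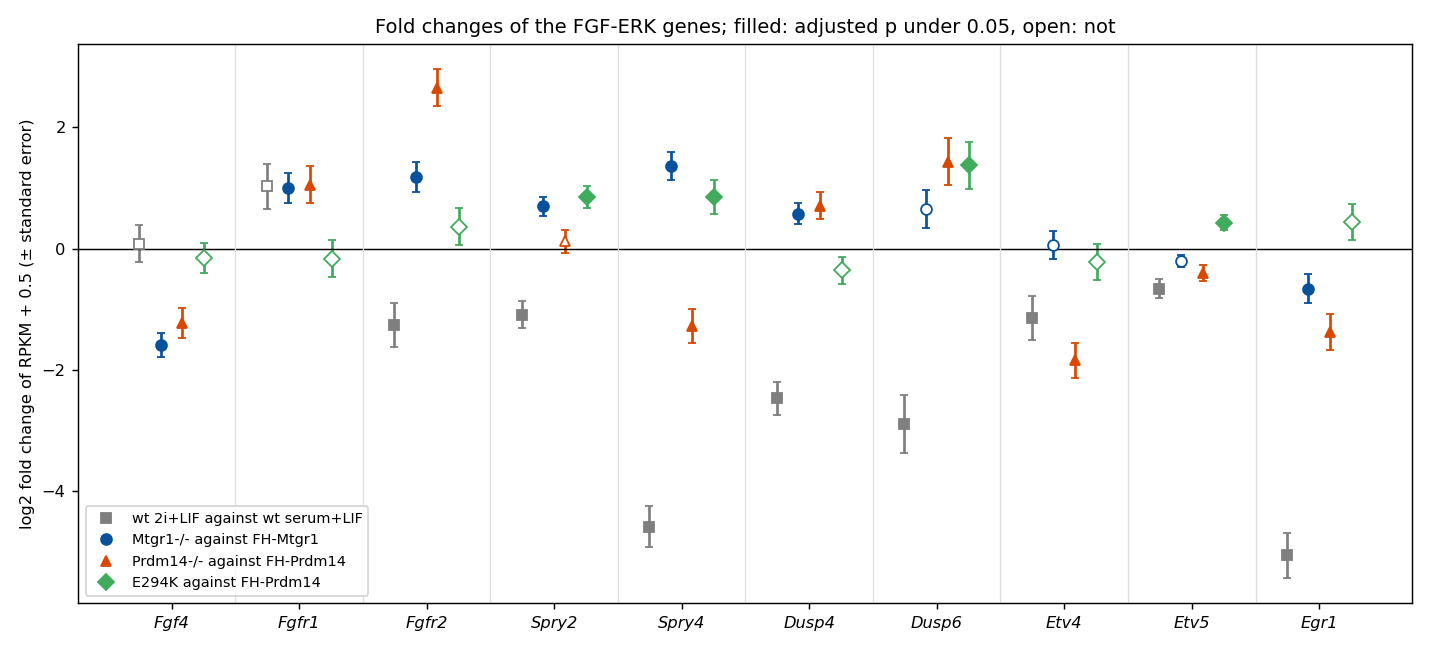
Log2 fold change of RPKM + 0.5 for each gene in 4 comparisons, with standard errors as bars. Filled symbols passed an adjusted p of 0.05 and open ones did not. Egr1 and Spry4 fall furthest in 2i+LIF (-5.06 and -4.59), and Fgfr2 rises in both knockouts (1.18 and 2.66) but its E294K symbol is open (0.36).

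The wider lists were counted next. Of the 12 other feedback inhibitors tested, 8 were higher on Mtgr1 loss and none was lower. Dusp9, an ERK-directed phosphatase, was the most abundant of those named, at 170, 182 and 304 RPKM in Mtgr1-/- and 43.4, 46.9 and 50.9 in FH-Mtgr1 cells (log2 change 2.16). Dusp14 (2.98) and the Sprouty-related Spred3 (2.58) changed by more, from means of 2.00 and 0.49 RPKM.

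Of the 11 other ERK-induced targets, 6 were higher and none was lower, led by Myc (24.6, 28.5 and 33.8 RPKM against 3.51, 3.58 and 2.39, log2 change 3.02), the AP-1 subunit gene Fosl2 (2.10) and Ccnd1 (1.79), which codes for cyclin D1. Among 12 other ligands 4 were higher and 3 were lower. Fgf5, a marker of the formative epiblast, was at 7.45, 5.68 and 5.71 RPKM against 0.78, 1.15 and 0.97 (2.21), and Fgf17 rose by 1.67 and Fgf15 by 1.11. The Fgf15 libraries overlapped, at 4.64 to 8.85 RPKM in Mtgr1-/- and 2.04 to 4.73 in FH-Mtgr1 cells, all below wt serum+LIF (15.4). The lower ligands were Fgf21 (-1.42), Fgf11 (-1.04) and Fgf3 (-0.77), all under 3 RPKM on average.

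Fgfr4 was the 1 changed receptor among the other 3 tested, at means of 0.48 RPKM in Mtgr1-/- and 3.54 in FH-Mtgr1 cells (-2.07), so it moved opposite to Fgfr1 and Fgfr2. Of the 21 cascade genes 5 were higher, with Map2k2, which codes for MEK2, at means of 67.1 against 23.1 RPKM (1.48), Ptpn11 (0.82) and Ksr1 (0.70), and 5 were lower, with the adaptor gene Frs3 (-2.08), Sos1 (-0.57) and Braf (-0.50). These cascade counts, like the ligand counts above, lay near the shares of all genes (26.2% higher and 26.1% lower).

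Loss of Prdm14 was then compared with its rescue, in which the tagged Prdm14 is expressed above the wt level. In Prdm14-/- against FH-Prdm14, 4 genes were higher and 5 were lower, and 25.2% of all genes passed, 11.4% as higher and 13.8% as lower. The 9 genes that passed fell to 2 (Fgfr2 and Etv4) without Prdm14-/- clone G6, and to 5 without either FH-Prdm14 library. Over all genes the calls fell from 3390 to 1706 without that clone, and to 1778 and 1679 without FH-Prdm14 G6 and F10.

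Fgf4 was at 42.3 and 70.4 RPKM in Prdm14-/- clones G6 and F10 and at 133 and 124 after rescue, 0.427 of the rescue level (log2 change -1.23, SE 0.25, limma adjusted p = 0.0036). Fgfr2 was at 14.6 and 12.2 RPKM against 2.13 and 1.35, 6.30-fold higher (log2 change 2.66, SE 0.30, limma adjusted p = 9.3e-05). These Fgfr2 levels were the highest of the series. Fgfr1 was at 47.7 and 28.7 RPKM against 18.4 and 16.9, 2.07-fold higher (limma adjusted p = 0.0244). The knockout clones differed from each other in Fgf4 and Fgfr1, with G6 the further from the rescue in both.

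The inhibitors split. Dusp6 was at 46.9 and 49.6 RPKM against 16.4 and 18.7, 2.71-fold higher (limma adjusted p = 0.0173), and Dusp4 was at 50.2 and 39.6 against 30.0 and 24.4, 1.64-fold higher (limma adjusted p = 0.0327). Spry4 went the other way, at 7.72 and 9.03 RPKM against 19.9 and 21.9 (log2 change -1.27, SE 0.28, limma adjusted p = 0.00547). Spry2 was at 29.8 and 29.6 RPKM against 27.7 and 26.9, with a log2 change of 0.12 and a 95% interval from -0.28 to 0.52.

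All 3 transcription factors were lower. Etv4 was at 8.12 and 8.64 RPKM, the 2 lowest values of the series, against 31.1 and 31.6 (log2 change -1.84, SE 0.29, limma adjusted p = 0.000768). Egr1 was at 5.14 and 7.07 RPKM against 16.8 and 16.2 (-1.38, limma adjusted p = 0.00518). Etv5 changed least, at 98.1 and 112 RPKM against 139 and 138 (-0.41, limma adjusted p = 0.0367), and missed the threshold with the clone as a block (0.0647), with only these 2 conditions in the fit (0.056), under median-of-ratios scaling (0.072) or after adjustment for GC content (0.0558).

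In the wider lists, 8 of 12 other feedback inhibitors were again higher and none was lower, or 5 without Prdm14-/- clone G6 or FH-Prdm14 clone G6. Dusp9 was at 237 and 180 RPKM against 44.4 and 33.5 (log2 change 2.41), Spry1 at 60.6 and 57.1 against 12.9 and 11.2 (2.24), and Dusp5, a nuclear ERK phosphatase, at 49.6 and 30.8 against 7.95 and 4.49 (2.61). Spry1 thus rose while its relative Spry4 fell in the same libraries. Of the 11 other ERK-induced targets 6 were higher, led by Klf6 (2.48), Phlda1 (2.36) and Fosl2 (2.30). The 1 lower target was Ccnd1 (means of 17.3 against 34.7 RPKM, -1.0), at 26.5 in wt serum+LIF. Klf6 averaged 29.9 RPKM in Prdm14-/- and 4.95 in FH-Prdm14 cells. Its wt serum+LIF level, 23.3, lay nearer the knockout than the rescue. Fosl2 averaged 11.3 and 1.91 and was at 1.19 in wt serum+LIF. Phlda1 averaged 34.1 and 6.17, and its wt serum+LIF level lay between the FH-Prdm14 libraries (6.86 and 5.49).

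Fgf5 reached 15.3 and 12.8 RPKM against 0.62 and 0.50 (log2 change 3.78), the 1 other ligand of 12 that was higher, while Fgf1 (-2.39), Fgf15 (-1.61) and Fgf18 (-0.72) were lower. Fgf1 averaged 0.40 RPKM in Prdm14-/- and 4.31 in FH-Prdm14 cells and was at 0.37 in wt serum+LIF. Fgf18 averaged 0.76 and 1.56 and was at 0.64 in wt serum+LIF, while Fgf15 averaged 4.08 and 12.5 and was at 15.4. Fgfr4 was lower here too (means of 2.04 against 5.69 RPKM, -1.29). Of the 21 cascade genes 3 were higher, the adaptor gene Shc1 (0.91) and Ptpn11 (0.51) among them, and 1, Grb2 (-0.50), was lower, with 1 to 4 higher and 0 to 2 lower over the alternatives. Of all genes, 11.4% were higher and 13.8% lower. Shc1 averaged 54.4 RPKM in Prdm14-/- and 28.6 in FH-Prdm14 cells and was at 50.4 in wt serum+LIF. Grb2 averaged 40.8 and 58.0 and was at 43.4 in wt serum+LIF, while Ptpn11 averaged 30.9 and 21.5 and was at 22.1.

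**Figure D3:**
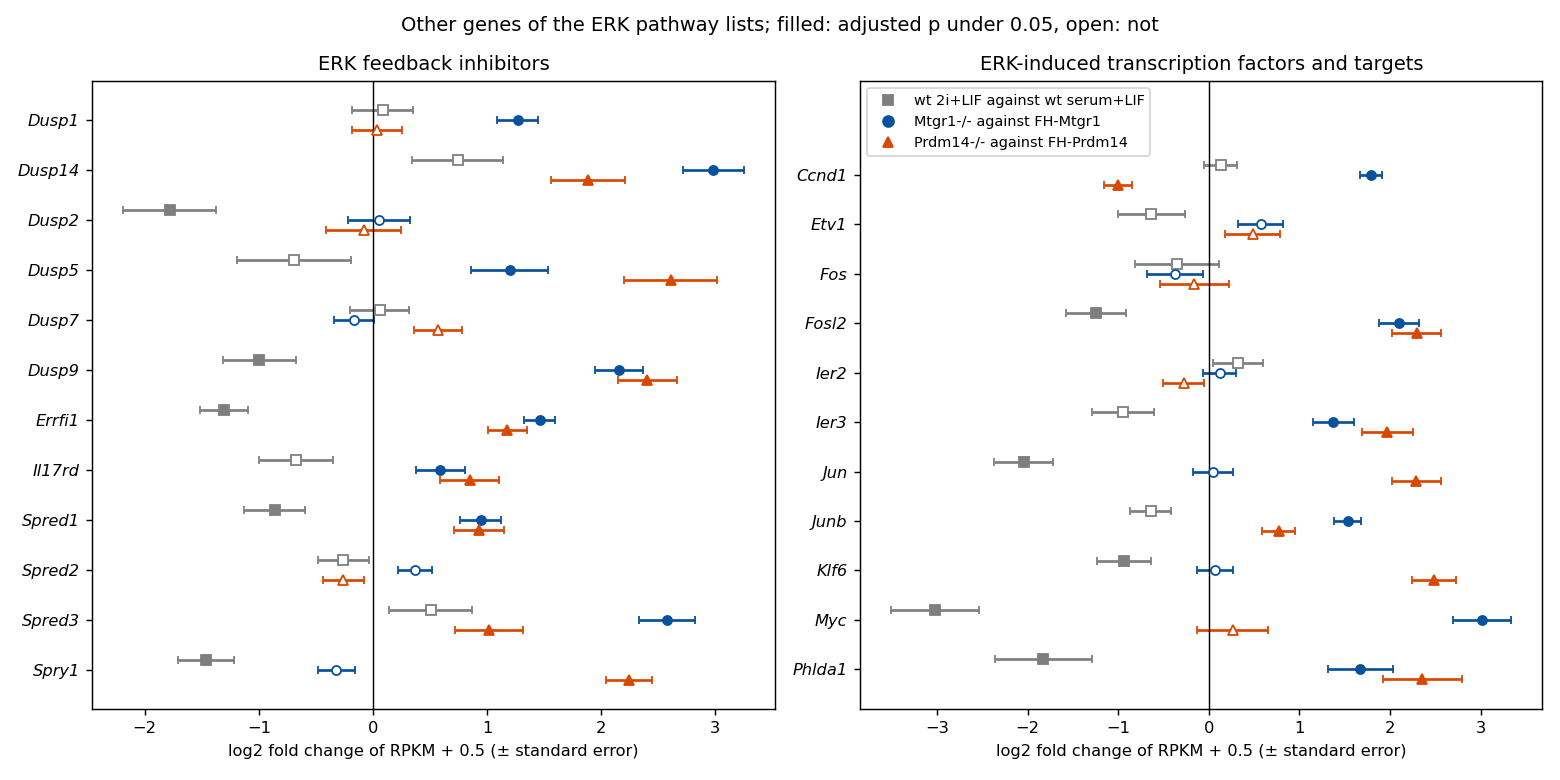
Log2 fold change of RPKM + 0.5, with standard errors as bars, for the other feedback inhibitors (left) and ERK-induced targets (right) that were tested, for wt cells in 2i+LIF against serum+LIF and for Mtgr1-/- against FH-Mtgr1 and Prdm14-/- against FH-Prdm14. Filled symbols passed an adjusted p of 0.05. Dusp9 and Fosl2 fall in 2i and rise in both knockouts, Spry1 rises on Prdm14 loss (2.24), and Ccnd1 moves in opposite directions in the knockouts (1.79 and -1.0).

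Whether the losses act alike was tested as the difference of the log2 changes. It passed for 3 of the 10 genes, where 31.4% of all genes passed, 17.1% with a positive and 14.3% with a negative difference. Spry4 rose on Mtgr1 loss (1.36) and fell on Prdm14 loss (-1.27), a difference of 2.64 (SE 0.36, limma adjusted p = 0.000386). Etv4 fell on Prdm14 loss (-1.84) with a change of 0.06 on Mtgr1 loss, a difference of 1.90 (SE 0.38, limma adjusted p = 0.00286).

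Fgfr2 rose by more on Prdm14 loss (2.66) than on Mtgr1 loss (1.18), a difference of -1.48 (SE 0.39, limma adjusted p = 0.013), which missed the threshold without Prdm14-/- clone G6 (0.0527) or FH-Prdm14 clone F10 (0.0701). The rescued lines that serve as the reference also differed, as given below. For Fgf4 the difference was -0.36 (95% interval -1.06 to 0.34), for Fgfr1 -0.05 (-0.90 to 0.80), for Dusp4 -0.13 (-0.75 to 0.48) and for Etv5 0.20 (-0.16 to 0.56). For Spry2 it was 0.58 (0.06 to 1.09), for Egr1 0.72 (-0.12 to 1.56) and for Dusp6 -0.78 (-1.87 to 0.30). These intervals leave room for differences of over 2-fold in Fgf4, Dusp6, Egr1 and Spry2.

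**Figure D4:**
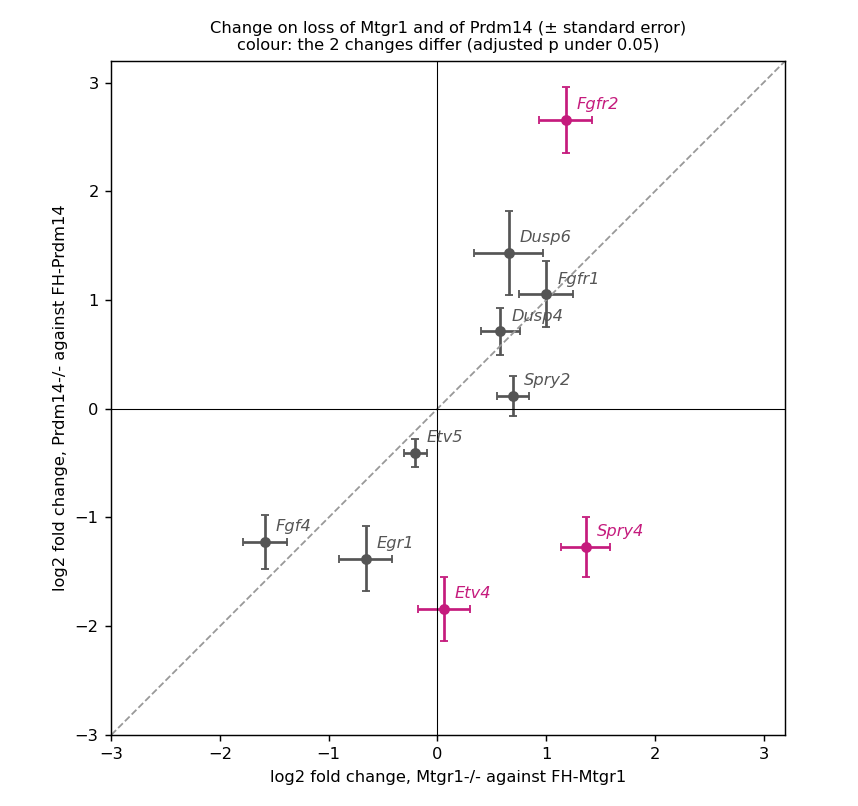
Log2 fold change on Prdm14 loss (Prdm14-/- against FH-Prdm14, vertical) against that on Mtgr1 loss (Mtgr1-/- against FH-Mtgr1, horizontal) for the 10 genes, with standard errors as bars and equal changes on the dashed line. Spry4, Etv4 and Fgfr2, in colour, are the genes whose changes differed between the losses (2.64, 1.90 and -1.48).

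The references themselves were compared directly. In FH-Prdm14 against FH-Mtgr1, 4 of the 10 genes passed, where 41.6% of all genes did, 26.2% as higher and 15.4% as lower. Spry4 (20.9 against 9.48 RPKM on average, log2 change 1.11, limma adjusted p = 0.00471) and Fgf4 (129 against 76.8, 0.75, 0.0205) were higher, and Fgfr2 (1.74 against 3.26, -0.74, 0.0462) and Dusp4 (27.2 against 39.6, -0.54, 0.0468) were lower. With the clone as a block 2 of them passed, and Fgfr2 (limma adjusted p = 0.0506) and Dusp4 (0.0595) did not. Without 1 library the count ranged from 1 to 3. Median-of-ratios scaling shifted all genes by -0.11 in this comparison.

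Against the single wt serum+LIF library, Mtgr1-/- cells had 6 of the 10 genes changed (37% of all genes, 14.9% as higher and 22.1% as lower) and Prdm14-/- cells had 7 (25.4% of all genes, 11.7% as higher and 13.7% as lower). Both comparisons share that 1 library, so their values are given side by side. Fgf4 changed by -2.53 in Mtgr1-/- and -1.42 in Prdm14-/- cells, Fgfr1 by 1.5 and 1.27, Fgfr2 by 1.27 and 2.01, Etv5 by -0.76 and -0.67, and Egr1 by -1.74 and -2.11, all past the threshold. Dusp4 passed in Mtgr1-/- cells (1.02), and Spry4 (-2.01) and Etv4 (-1.94) passed in Prdm14-/- cells.

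Without Prdm14-/- clone G6 the 7 fell to 4, with Fgf4 (limma adjusted p = 0.0562), Fgfr1 (0.164) and Etv5 (0.0696) lost. FH-Mtgr1 cells, which carry the rescue, differed from wt serum+LIF in 1 of the 10 genes (2.74% of all genes, 1.71% as lower and 1.03% as higher): Spry4 was at 8.13 to 10.5 RPKM against 35.2 (log2 change -1.85, limma adjusted p = 0.0176). That call was lost with the clone as a block (limma adjusted p = 0.0645) or without clone A3 (0.0519). Spry4 in Mtgr1-/- cells, at 20.9 to 29.3 RPKM, therefore lay between its rescue and the wt library. With 1 wt library, a single call does not make the rescue alike to wt. At an unadjusted limma p under 0.05, 4 of the 10 genes and 2847 of all genes passed. FH-Mtgr1 means were 76.8 RPKM against 147 for Fgf4, 13.3 against 27.7 for Egr1 and 113 against 166 for Etv5. Those of Fgfr1, Fgfr2, Dusp4 and Dusp6 lay above wt.

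The E294K lines ask which changes need Prdm14 to bind Mtgr1. They carry as much Prdm14 mRNA as the FH-Prdm14 lines, 89.9 and 105 against 116 and 79.8 RPKM. In E294K against FH-Prdm14, 4 of the 10 genes were higher and none was lower, where 19.5% of all genes passed, 6.35% as higher and 13.2% as lower. Spry2 was at 50.05 and 49.5 RPKM against 27.7 and 26.9, 1.81-fold higher (limma adjusted p = 0.00757), and Dusp6 at 49.1 and 43.7 against 16.4 and 18.7, 2.60-fold higher (0.0266). Spry4 was at 38.4 and 37.5 RPKM against 19.9 and 21.9, 1.80-fold higher (0.0496), and Etv5 at 186 and 188 against 139 and 138, 1.35-fold higher (0.0346). With the clone as a block Spry2 alone passed, and limma adjusted p was 0.0646 for Dusp6, 0.103 for Spry4 and 0.0629 for Etv5. Leaving out any 1 of the 4 libraries left 0 past the limma threshold (3 or 4 at an unadjusted p under 0.05), where voom on all libraries passed 4, and calls over all genes fell from 2633 to between 869 and 1142.

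The ligand and receptors, which moved in the knockout, did not pass here. Fgf4 was at 112 and 119.5 RPKM in E294K cells (log2 change -0.15, 95% interval -0.69 to 0.39). Fgfr1 was at 15.1 and 16.2 RPKM (-0.16, -0.83 to 0.50), and Fgfr2 at 2.38 and 2.28 RPKM (0.36, -0.29 to 1.01), so a 2-fold rise of Fgfr2 lies at the edge of its interval. Dusp4 (-0.36), Etv4 (-0.22) and Egr1 (0.43) did not pass either. Over the other 12 feedback inhibitors 1 was lower and none was higher, and over the other 11 targets 4 were higher and none was lower. Over the alternatives, 0 to 4 of these inhibitors and 3 to 6 of these targets were higher, and 1 to 2 and 0 to 2 were lower.

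Against Prdm14-/- cells of the same clones, the E294K lines differed in 9 of the 10 genes (32.9% of all genes, 15.1% as higher and 17.8% as lower). Fgf4 (2.11-fold), Spry2 (1.66-fold), Spry4 (4.35-fold), Etv4 (3.08-fold), Etv5 (1.79-fold) and Egr1 (3.52-fold) were higher, and Fgfr1 (log2 change -1.22), Fgfr2 (-2.29) and Dusp4 (-1.07) were lower. Dusp6 alone did not pass (-0.06, 95% interval -0.90 to 0.78), being at 43.7 to 49.6 RPKM in both. Without Prdm14-/- clone G6, 5 of the 9 passed, and Fgf4 (limma adjusted p = 0.0955), Fgfr1 (0.128), Spry2 (0.0657) and Dusp4 (0.0531) did not. Without either E294K library Fgfr1 and Spry2 did not pass, and without clone G6 of E294K neither did Fgf4 (0.0561).

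Across the 7 conditions, few neighbouring levels could be told apart. For Fgf4 the order from lowest to highest was Mtgr1-/-, Prdm14-/-, FH-Mtgr1, E294K, FH-Prdm14, wt serum+LIF and wt 2i+LIF, and only the first step, from Mtgr1-/- to Prdm14-/-, passed (log2 difference 1.11, limma adjusted p = 0.0031). For Fgfr2 the order was wt 2i+LIF, FH-Prdm14, E294K, wt serum+LIF, FH-Mtgr1, Mtgr1-/- and Prdm14-/-, and only the step from FH-Mtgr1 to Mtgr1-/- passed. For Fgfr1, lowest in wt serum+LIF and highest in Mtgr1-/-, no neighbouring step passed.

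For Spry2, Spry4, Dusp4, Dusp6 and Egr1 the step from wt 2i+LIF to the next condition passed, by log2 differences of 0.76, 2.57, 2.01, 2.23 and 2.95. Spry4 had 1 more step, from FH-Mtgr1 to FH-Prdm14 (1.11), and Egr1 had 1 more, from Mtgr1-/- to FH-Mtgr1 (0.66). The next condition above 2i was Prdm14-/- for Spry4 and Egr1, FH-Mtgr1 for Spry2, E294K for Dusp4 and FH-Prdm14 for Dusp6. Etv4 was lowest in Prdm14-/-, the step to wt 2i+LIF passing at a limma adjusted p of 0.0495, and no step of Etv5 passed, from 98.2 RPKM on average in Mtgr1-/- to 187 in E294K.

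Markers of cell state moved with these genes, and their part in the results was not tested. Fewer cells of a type and less RNA per cell cannot be told apart in these bulk samples. For the marker counts below, 26.2% of all genes were higher and 26.1% lower on Mtgr1 loss, and 11.4% and 13.8% on Prdm14 loss. The lists are short, and a count near these shares is not a result about its list. Of 6 tested trophoblast markers, 5 were higher on Mtgr1 loss and 2 on Prdm14 loss, and the summed level of the 8 listed was 856 to 1394 RPKM in Mtgr1-/- and 438 to 597 in Prdm14-/- cells, against 26.7 to 91.6 in the other 10 libraries. Krt8 made up most of it, at 757 to 1303 and at 396 and 549 RPKM, while the defining genes Cdx2 and Elf5 stayed at or under 1.19 RPKM in all libraries. Hand1, Plac1 and Ascl2 peaked in a Mtgr1-/- library, at 36.1, 19.0 and 16.6 RPKM. Eomes peaked in a Prdm14-/- library (5.50) and Tfap2c in a FH-Prdm14 library (38.6).

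Of the 7 naive pluripotency markers, 3 were lower on Mtgr1 loss and 7 on Prdm14 loss, with sums of 121 to 175 RPKM in Mtgr1-/- and 202 to 206 in FH-Mtgr1, 222 and 324 in Prdm14-/-, and 964 and 994 in FH-Prdm14 cells. In 2i+LIF the naive sum was 531 in 1 library and 1126 in the other. It was 480 RPKM in wt serum+LIF, above the FH-Mtgr1 and below the FH-Prdm14 sums, and 550 and 609 in E294K cells. Of the 5 formative or primed markers, 3 were higher and 1 lower on Mtgr1 loss, and 4 higher and 1 lower on Prdm14 loss. Their sum was 26.8 and 40.7 RPKM in 2i+LIF, 48.8 and 59.9 in FH-Prdm14 and 162 to 492 in the other conditions, E294K among them at 301 and 323.

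Of 8 tested extraembryonic endoderm markers, 2 were higher and 3 lower on Mtgr1 loss and 3 were higher on Prdm14 loss, with Gata4 at 0.69 to 1.51 RPKM in Mtgr1-/- and at 1.78 and 5.69 in Prdm14-/- cells. The 10 listed endoderm markers summed to 204 to 251 RPKM in Mtgr1-/- and 114 to 141 in FH-Mtgr1 cells. Their sum was 186 and 232 in Prdm14-/-, 153 and 156 in FH-Prdm14, and highest in 2i+LIF (261 and 272). Sparc weighed most in these sums, at 69.8 to 243 RPKM over the libraries with its peak in 2i+LIF. Gata4, Gata6, Sox7, Sox17, Pdgfra and Foxa2 did not exceed 5.69 RPKM in any library. The median log2 change of the 8 tested markers was -0.61 on Mtgr1 loss, opposite to the sum, and 0.67 on Prdm14 loss. Of 4 tested fibroblast markers, 2 were higher and 2 lower on Mtgr1 loss and 1 was higher on Prdm14 loss. Col1a1 was at 5.20 to 16.7 RPKM in Mtgr1-/- and 0.95 to 2.97 in FH-Mtgr1 cells, and Thy1 at 5.67 to 6.73 and 19.8 to 24.6. The 8 listed summed to 6.06 to 36.5 RPKM, with Postn and Lum at or under 0.118 RPKM in all libraries.

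By their pattern over the 15 libraries, which share conditions and clones and are not independent, the non-member genes most like each member were found by Pearson's r on log2(RPKM + 0.5). They were Arl14epl, Cdyl2 and Acp6 for Fgf4 (r of 0.98 each), Cpe, Smo and Snx9 for Fgfr1 (0.94 to 0.95), Prss8, Usp27x and Cdkl1 for Fgfr2 (0.95 to 0.96), and Spop, Psors1c2 and Rnf145 for Spry2 (0.95 to 0.96). For Spry4 they were Tmem57, Cdkl2 and Slc39a14 (0.96 to 0.97), for Dusp4 Cnksr1, Gsto1 and Trim46 (0.95 each), and for Dusp6 Epha1, Ecscr and Shroom4 (0.95 to 0.96). Etv4 had the weakest likeness, to Yars, Cd2bp2 and Nat10 (0.88 to 0.92), while Sin3a and Dcun1d4 were among the genes most like Etv5 (0.97 and 0.95) and Egr1 was most like Gm4961, Dppa4 and Slc9b2 (0.94 to 0.97).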

How the data were processed

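RNA was measured in 15 of the 26 samples; the other 11, from chromatin immunoprecipitation, were not used here. The authors aligned single-end reads of poly-dT selected RNA to mm9 with Tophat and RefSeq gene models, counted them with HTSeq, tested counts with DESeq2 and deposited RPKM per gene and library. Versions were not given in the sources used here, and the submitters' processing notes also name GRCm38. Which library was read on which of 2 instruments was not given.

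Values reaching 1 RPKM in at least 2 libraries (13477 of 24015 genes) were analysed as log2(RPKM + 0.5) in 1 limma 3.58.1 model (R 4.3.3) over all 7 conditions, with a mean-variance trend and Benjamini-Hochberg adjustment at 0.05, checked on simulated data. Groups came from the labels. From RPKM and gene length, 100% of values gave whole reads (tolerance 0.01). Coordinates are from GENCODE vM1, and promoters from RefSeq.

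The members and lists were chosen with earlier results of these data known. The text names all 10 members, per pathway list up to 3 other genes in each direction past the threshold in the first 3 comparisons, the 3 genes most like each member, Prdm14 and Cbfa2t2, except that a few of these genes are not reported here. Dusp5, Spry1 on Mtgr1 loss, Krt8, Cdx2, Elf5, Hand1, Plac1, Ascl2, Eomes, Tfap2c, Gata4, Postn, Lum, Col1a1 and Thy1 come from the lists but were named after their values were seen. The same holds for Dppa5a, Sox2, Nanog, Pou5f1, Utf1, Sparc, Gata6, Sox7, Sox17, Pdgfra and Foxa2.

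Rescues were made in the knockout clones, so clones pair the libraries. Deviations of same-clone libraries correlated at -0.18 to 0.063 for Mtgr1-/- and FH-Mtgr1, 0.30 for Prdm14-/- and FH-Prdm14, and 0.040 and 0.080 for E294K against Prdm14-/- and FH-Prdm14.

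Alternatives were no filter, pseudocounts of 0.1 and 1, a fit on the compared conditions, the clone as a block, median-of-ratios scaling, voom on reads computed back, adjustment for GC content (89.4% of tested genes had a value) and leaving out each library. A fit without wt 2i+LIF libraries was chosen after seeing the data.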

Additional observations from a re-analysis of the deposited data

Results flagged for a closer look

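The change on Mtgr1 loss (Mtgr1-/- against FH-Mtgr1) differed from that on Prdm14 loss (Prdm14-/- against FH-Prdm14) in 3 of the 10 genes by an interaction test in limma, a share near the 31.4% of all genes that passed it. The log2 difference was 2.64 for Spry4 (adjusted p = 0.000386), where all 3 Mtgr1-/- libraries lay above their rescue and both Prdm14-/- libraries lay below theirs. It was 1.90 for Etv4 (adjusted p = 0.00286), where the Mtgr1 libraries overlapped and both Prdm14-/- libraries lay below their rescue. It was -1.48 for Fgfr2 (adjusted p = 0.013), where the knockout libraries lay above the rescue in both, and the call was lost without Prdm14-/- clone G6 or FH-Prdm14 clone F10 (adjusted p = 0.0527 and 0.0701). The Spry4 directions are relative to rescues that differed, with means of 9.48 RPKM in FH-Mtgr1 and 20.9 in FH-Prdm14 cells. The single wt serum+LIF library was at 35.2, above the means of both Mtgr1-/- (25.3) and Prdm14-/- (8.37) cells. No group of libraries was large enough for a test of single outlying samples.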

How the results depend on the processing

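Of 920 alternative values of members past the threshold, 796 stayed past it, 124 lost the call and none changed sign. When a fit held just the conditions compared, the members that passed went from 8 to 0 in 2i against serum (wt cells), from 4 to 7 in E294K against FH-Prdm14, from 7 to 3 in FH-Prdm14 against wt 2i+LIF, from 7 to 4 in Prdm14-/- against wt serum+LIF and from 1 to 0 in FH-Mtgr1 against wt serum+LIF. With the clone as a replicate block, E294K against FH-Prdm14 went from 4 to 1, FH-Prdm14 against FH-Mtgr1 from 4 to 2 (also 2 with a pseudocount of 0.1) and FH-Mtgr1 against wt serum+LIF from 1 to 0, and the block changed no member call beyond those given with the results. With no filter on low values the counts were 6 of 8 in 2i against serum, 6 of 7 on Mtgr1 loss, 3 of 4 in E294K against FH-Prdm14, 6 of 7 in Prdm14-/- against wt serum+LIF and 3 in FH-Prdm14 against FH-Mtgr1, where Fgfr2 and Dusp4 lost the call and Etv5 gained it. Without the wt 2i+LIF libraries, FH-Prdm14 against FH-Mtgr1 went to 7, FH-Mtgr1 against wt serum+LIF to 3 and the difference between the losses from 3 to 5. Leaving out 1 library at a time gave 7 to 7 for 2i against serum, 5 to 7 for Mtgr1 loss, 2 to 8 for Prdm14 loss, 0 to 0 for E294K against FH-Prdm14, 5 to 9 for E294K against Prdm14-/-, 1 to 3 for FH-Prdm14 against FH-Mtgr1, 7 to 8 for 2i against FH-Mtgr1, 4 to 7 for FH-Prdm14 against 2i, 6 to 6 for Mtgr1-/- and 4 to 7 for Prdm14-/- against wt serum+LIF, 0 to 1 for FH-Mtgr1 against wt serum+LIF and 2 to 4 for the difference between the losses. These fits have fewer libraries, and the single wt serum+LIF library could not be left out.

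Values that changed sign were all short of the threshold with all libraries in the fit: Fgf4 in 2i against serum (-0.079 without 2i library 1, 0.24 without library 2), Etv4 on Mtgr1 loss (-0.089 with GC adjustment, -0.030 without FH-Mtgr1 A3), Fgfr1 and Etv4 in E294K against FH-Prdm14 (0.12 and 0.17 with GC adjustment), Dusp6 in E294K against Prdm14-/- (0.026 without E294K G6), Spry2 in FH-Prdm14 against FH-Mtgr1 (-0.077 with median-of-ratios scaling, -0.041 without FH-Mtgr1 A3), Etv4 in 2i against FH-Mtgr1 (0.15 without 2i library 2, -1.08 without library 1), Spry2 in Prdm14-/- against wt serum+LIF (0.18 with GC adjustment) and Fgfr2 in FH-Mtgr1 against wt serum+LIF (-0.093 without C3). In the difference between the losses they were Fgf4 (0.0039 without Prdm14-/- F10), Dusp4 (0.036 without Prdm14-/- G6, 0.012 without FH-Prdm14 F10) and Fgfr1 (0.31 without Prdm14-/- G6, 0.010 without FH-Prdm14 F10, 0.016 without Mtgr1-/- C1, 0.078 and 0.15 without FH-Mtgr1 A3 and C1). The cause was not tested. Of 633 alternative values of named pathway genes, 56 lost the call and none changed sign, and 55 of 510 pathway list counts moved by over 1.5 times.

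Calls over all genes went from 3084 to 0 in 2i against serum, 2633 to 7214 in E294K against FH-Prdm14, 4874 to 2578 in 2i against FH-Mtgr1, 3163 to 626 in FH-Prdm14 against 2i, 3423 to 625 in Prdm14-/- and 369 to 0 in FH-Mtgr1 against wt serum+LIF (3102 at an unadjusted p under 0.05) when a fit held just the conditions compared. FH-Mtgr1 against wt serum+LIF gave 39 with the block, 639 with voom, 1275 without 2i libraries and 18 to 184 without 1 library. Leaving out a library gave as few as 1515 of 4435 for E294K against Prdm14-/-, 2844 of 5600 for FH-Prdm14 against FH-Mtgr1, 1395 of 3163 for FH-Prdm14 against 2i, 926 of 3423 for Prdm14-/- against wt serum+LIF and 2611 of 4238 for the difference between the losses. The share of calls that were higher went from 63.1% to 52.6% for FH-Prdm14 against FH-Mtgr1, 66.0% to 53.9% for FH-Prdm14 against 2i, 40.2% to 52.0% for Mtgr1-/- and 37.7% to 55.3% for FH-Mtgr1 against wt serum+LIF under median-of-ratios scaling, and from 32.5% to 47.8% for E294K against FH-Prdm14 with GC adjustment. Depth limits Egr1, Spry4, Fgfr2 and Dusp6 in 2i+LIF, where 1 library each held 8, 31, 32 and 57 reads.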
